A study of Homo sapiens with 12 samples.

Results

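RNA levels in THP-1 cells were compared between 3 libraries made after the CDK7 inhibitor YKL5124 and 3 libraries made after its vehicle DMSO, 6 of the 12 libraries in the series. THP-1 is an established acute myeloid leukaemia line that carries an MLL-AF9 fusion gene. Cells of both groups were held in inhibitor or vehicle for 2 hours, and both had 1 mM 4-thiouridine, a uridine analogue that marks RNA made in its presence, during the last 10 minutes. Libraries were 3' end libraries of polyadenylated RNA (QuantSeq forward kit), with 5% of Drosophila S2 material added to the RNA. The other groups of 3 libraries had AZ5576, known as a CDK9 inhibitor, or THZ531, known as an inhibitor of CDK12 and CDK13, on the same schedule. The labels give no dose, and they are silent on whether a group's 3 libraries stem from different cultures. The p-values therefore rest on variation between libraries that may be technical only. The vehicle columns of the table carry the name UT, which no label explains. The labels tie this table to all 12 samples, which leaves DMSO for these columns, and every comparison with DMSO rests on that reading.

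Each gene was represented by its human transcript row with the highest total, which gave 7776733 to 12518273 counts per library in the 6 libraries. The table held rows for 57002 human genes, and 15831 passed the filter on low counts and were tested. The counts are totals, in which RNA made before and during the 4-thiouridine pulse is not separated. DMSO replicate 2 differed more from DMSO replicates 1 and 3 (chi-square per gene of 5.00 and 4.69) than those 2 did from each other (1.91), while pairs of YKL5124 libraries had 2.92 to 4.00. Without it, the calls against DMSO of CDK7, TAF2, MED27, MED13L, GINS4, ELANE, PCF11 and RPL13A were lost. So were those of FANCC, HSPH1, GPI, ALDOA, PSMB2 and H4C15, which the naming rule holds but which are not described below. Counts that moved are given both ways. Levels are library-scaled counts (CPM, with TMM factors), and fold changes are on the log2 scale. A gene is called higher or lower where the Benjamini-Hochberg adjusted p of edgeR's quasi-likelihood test was under 0.05 over the 15831 genes. Lengths and positions are those of GENCODE v29 on GRCh38.

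CDK7 binds cyclin H (CCNH) and MNAT1, and this complex has roles at promoters and in the cell cycle. As part of the general transcription factor TFIIH it phosphorylates the tail of RNA polymerase II as transcription starts, and on its own it acts as the kinase that activates the cyclin-dependent kinases of the cell cycle. Those kinases release E2F transcription factors, which drive genes of DNA replication. RNAs that decay within minutes, such as those of immediate-early genes and MYC, follow a change in transcription sooner than stable RNAs such as those of ribosomal protein genes.

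MYC fell with YKL5124, as did 24 of 36 immediate-early genes, 12 of 28 small nucleolar RNA host genes and 24 of 49 E2F and G1/S genes, and most of the larger rises were in RNAs of low abundance or without a protein product. In all, 1148 genes (7.25%) were higher and 2143 genes (13.5%) were lower than in DMSO. A change of at least 2-fold was seen in 346 higher genes (2.19%) and 388 lower genes (2.45%). The genes with a 2-fold rise had a median level of 0.679 CPM in DMSO and 2.27 CPM with YKL5124, and 27 of them reached a mean of 10 CPM in either group. The genes with a 2-fold fall had a median of 4.13 CPM in DMSO and 1.69 CPM with YKL5124, and 108 of them reached 10 CPM. A gene low in DMSO could pass the filter on low counts through another group where it was high, which favours rises. The counts of 2-fold rises and falls are therefore not like for like. Higher genes made up 34.9% of the calls, but 21.1% when libraries were scaled to the fly counts (530 higher, 1985 lower) and 54.1% with upper quartile scaling (2020 higher, 1713 lower). Without DMSO replicate 2, 903 genes were higher and 1919 lower, and the same 3 lists had 26 of 37, 12 of 28 and 24 of 49 lower. The median change of all tested genes was -0.0045, and it was -0.068 and 0.061 under those scalings.

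**Figure D1:**
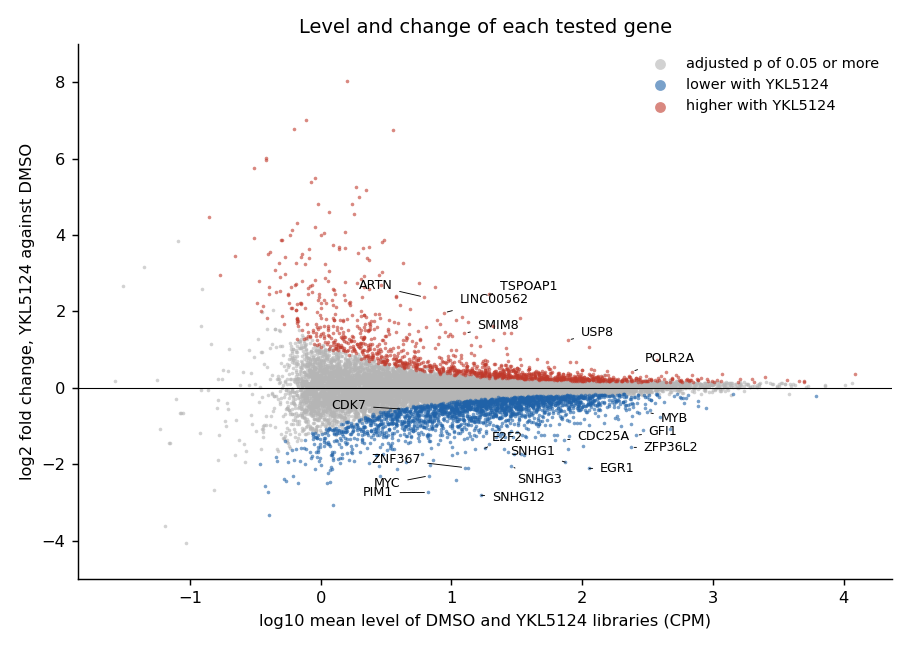
Each point is 1 tested gene, with the log10 of its mean CPM over the 6 libraries on the horizontal axis and its log2 fold change with YKL5124 on the vertical axis. Red and blue points are the 1148 higher and 2143 lower genes, and the named falls lie at higher levels than most of the points with a 2-fold rise.

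Genes of the targeted kinase complex and TFIIH were called in shares near those of all genes. CDK7 itself (the kinase that YKL5124 inhibits, ENSG00000134058, chromosome 5, 69234795 to 69277430) was at 4.67, 5.42 and 5.27 CPM in the DMSO libraries and at 3.52, 4.01 and 2.91 CPM with YKL5124. These values did not overlap, and the log2 fold change was -0.56 (SE 0.20, adjusted p = 0.0463, edgeR), a call that was lost in 9 of the 24 alternatives, among them that without DMSO replicate 2 (-0.52). CCNH was at -0.21 (SE 0.15) and MNAT1 at 0.14 (SE 0.17) on the log2 scale, and neither passed the test. The row counted for MNAT1 is a retained intron transcript that ends 160938 bases upstream of the gene's annotated end. That for CCNH ends 75001 bases upstream, so these rows may not measure the main mRNAs of either gene. Among the 10 genes of the CDK7 complex and TFIIH, 1 was higher (GTF2H3, a TFIIH core subunit, 0.45, SE 0.10), 1 was lower (CDK7) and 8 did not pass. The shares of 10% higher and 10% lower compare with 7.25% and 13.5% of all genes. YKL5124 is known to bind the kinase protein, so the RNA level of CDK7 does not check the labels.

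Other parts of the transcription machinery varied in their share of lower calls. Of 33 genes for general initiation factors and RNA polymerase II, 2 were higher (6.06%) and 3 were lower (9.09%), below the shares over all genes (7.25% and 13.5%). POLR2A, the largest subunit of RNA polymerase II, was at 197, 208 and 206 CPM in DMSO and 282, 265 and 270.2 CPM with YKL5124. All YKL5124 libraries lay above the DMSO libraries, and the rise was 0.42 (SE 0.06, adjusted p = 4.09e-06, edgeR). TAF2, a TFIID subunit, was at 0.41 (SE 0.13), with its call lost in 4 alternatives, whereas TAF7, another TFIID subunit, fell by 0.51 and GTF2E2, a TFIIE subunit, fell by 0.58. Of 30 genes for P-TEFb, its 7SK inhibitor complex and elongation factors, 7 were lower (23.3%, against 13.5% of all genes) and 0 were higher. MEPCE, which caps 7SK RNA, went from 113 ± 4.60 to 59.1 ± 1.85 CPM (SD, n = 3), NELFA, a subunit of the pausing factor NELF, fell by 0.67, and HEXIM1, which holds CDK9 inactive, fell by 0.48 (its last exon overlaps HEXIM2-AS1). CDK9 (0.38, SE 0.16), CDK12 (-0.14, SE 0.07) and CDK13 (0.09, SE 0.10) did not pass the test. Of 35 genes for other transcriptional kinases and Mediator, 9 were lower (25.7%, against 13.5% of all genes). Among these were the Mediator subunits MED9 (-0.89) and MED8 (-0.43). The 2 higher members, MED27 (0.20) and MED13L (0.19), lost their calls in 6 and 10 alternatives.

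Most of the leukaemia and myeloid transcription factors tested were lower, with MYC in front. Of 33 tested members, 22 were lower (66.7%, against 13.5% of all genes) and 1 was higher (3.03%, against 7.25%). Their median log2 fold change was -0.42 against -0.0045 over all genes. MYC, a transcription factor of growth and proliferation (ENSG00000136997, chromosome 8, 127735434 to 127741434), was at 9.63, 10.9 and 13.1 CPM in DMSO and at 2.06, 2.52 and 2.16 CPM with YKL5124. Every YKL5124 library lay far below every DMSO library, and the fall was 2.30 (SE 0.20, adjusted p = 4.04e-10, edgeR). GFI1, a repressor of myeloid differentiation genes, was at 363, 354 and 362 CPM in DMSO and 161, 146 and 148 CPM with YKL5124. Its groups did not overlap either, and it fell by 1.24 (SE 0.06, adjusted p = 3.02e-15, edgeR). IRF2BP2, a corepressor of IRF2, fell by 1.10 (SE 0.06), from 396 ± 14.6 to 185 ± 7.50 CPM (SD, n = 3). HOXA9, a homeobox factor that MLL fusions are known to keep on, fell by 0.83 (SE 0.08, its last exon overlaps AC004080.3), and MYB, which cooperates with it in leukaemia, fell by 0.64 (SE 0.06) from 384 ± 21.3 to 246 ± 10.2 CPM. The single higher member was ETV6, an ETS repressor, at 0.28 (SE 0.08), and its call was lost with fly scaling and with summed rows. BHLHE22, a basic helix-loop-helix repressor outside this list, was among the 10 largest falls of protein-coding genes with at least 10 CPM and groups that did not overlap (-2.11, SE 0.15), as were OSR2, a zinc finger factor of limb and tooth development (-1.89, SE 0.16), and CXCR4, the chemokine receptor that holds blood stem cells in the marrow (-1.77, SE 0.09).

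**Figure D2:**
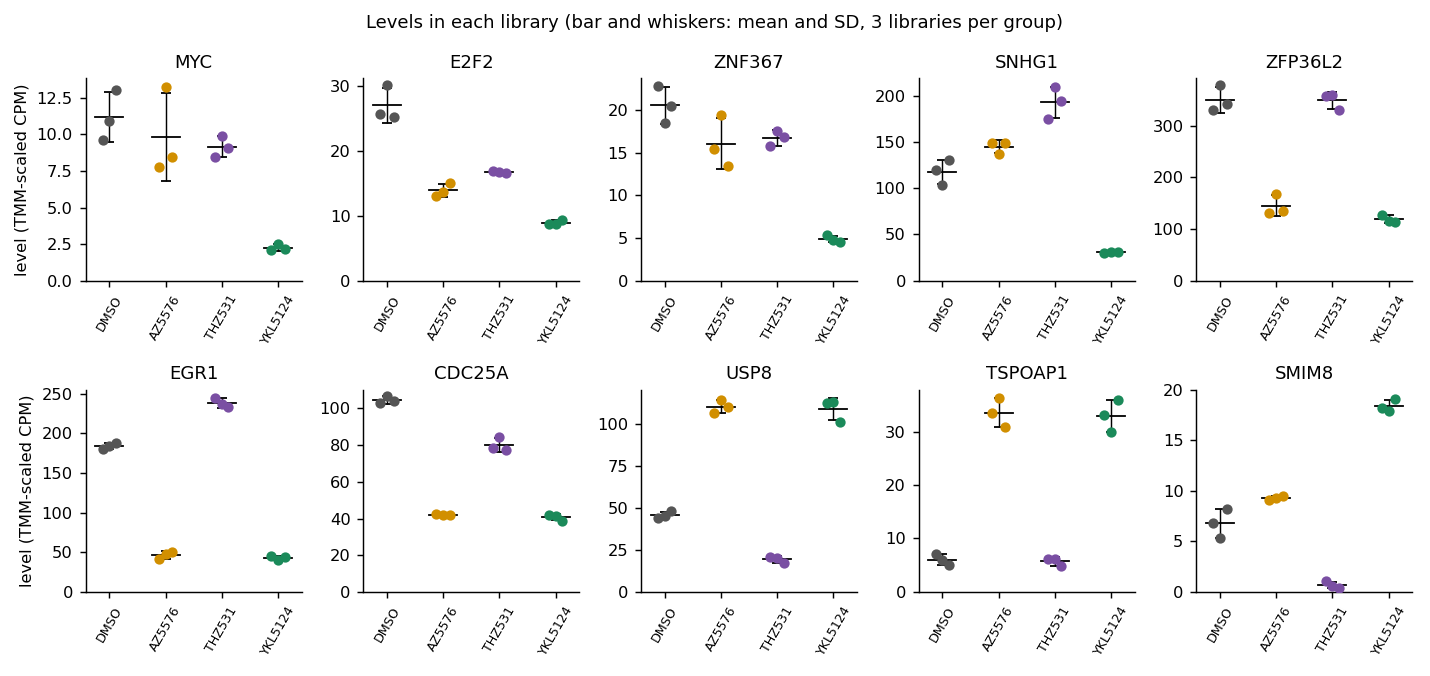
TMM-scaled CPM of 10 genes in each of the 12 libraries, with points for libraries, bars for group means and whiskers for the SD of 3 libraries. MYC, E2F2, ZNF367 and SNHG1 are lowest with YKL5124, EGR1 and CDC25A are low with both AZ5576 and YKL5124, and USP8, TSPOAP1 and SMIM8 are above DMSO with YKL5124.

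Small nucleolar RNA host genes were among the RNAs with the larger falls. These genes carry snoRNAs in their introns, and their spliced RNAs mostly make no protein and are known as targets of nonsense-mediated decay. Of 28 tested, 12 were lower (42.9%, against 13.5% of all genes), 0 were higher and 16 did not pass, with a median of -0.43. SNHG1 (ENSG00000255717, chromosome 11, 62851988 to 62855914), whose last exon overlaps no other counted gene, was at 119.6, 104 and 130.1 CPM in DMSO and at 29.9, 30.5 and 31.2 CPM with YKL5124. Libraries within each group were close and the groups stood well apart, with a fall of 1.95 (SE 0.08, adjusted p = 9.81e-17, edgeR). SNHG12 went from 29.6, 30.5 and 29.2 CPM to 3.64, 3.45 and 5.33 CPM, a fall of 2.81 (SE 0.14), and SNHG3 went from 44.4, 44.6 and 48.4 CPM to 9.94, 11.7 and 11.4 CPM, a fall of 2.05 (SE 0.09). Both were apart from DMSO in every library, but the last exons of SNHG12 and SNHG3 overlap TRNAU1AP and RCC1, and the strand setting of the counts is unknown here. The other lower members, named without a rule because the list is short, were SNHG26, SNHG7, SNHG17, SNHG15, SNHG19, SNHG25, SNHG8, GAS5 and EPB41L4A-AS1. Without the genes whose last exons overlap another counted gene, 9 of the list were lower.

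TAF1D and RPL13A, protein-coding genes that also hold snoRNAs in their introns, had lower values. They were set together after their values were seen, and no list of protein-coding snoRNA hosts was examined. TAF1D, a subunit of the RNA polymerase I factor SL1, was at 40.2, 44.1 and 38.8 CPM in DMSO and 15.2, 11.7 and 11.7 CPM with YKL5124. The groups did not overlap, and the fall was 1.69 (SE 0.10, adjusted p = 1.76e-13, edgeR); the transcript counted for it is annotated as a retained intron form. RPL13A was the 1 lower gene among 78 ribosomal protein genes, of which 10 were higher and 72 had a positive log2 fold change. RPL13A, whose counted transcript is also annotated as a retained intron form, was at -0.25 (SE 0.07). That call was lost when rows were summed, with fly scaling, and without DMSO replicate 2 (-0.14). Of 92 tested rows annotated as snoRNAs, 17 were lower (18.5%, against 13.5% of all genes) and 11 were higher (12%, against 7.25%). SNORD104 was at 9.71, 12.6 and 10.7 CPM in DMSO and 3.88, 2.89 and 1.58 CPM with YKL5124, a fall of 2.03 (SE 0.21). SNORD3A, the U3 snoRNA, was at 89.6, 66.1 and 77.2 CPM in DMSO and 104, 105 and 103 CPM with YKL5124, a rise of 0.42 (SE 0.08); both snoRNAs were chosen after their values were seen. Mature snoRNAs have no poly(A) tail, so these rows do not measure them in the usual sense.

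Genes of the G1/S transition were lower in part, with E2F2 among them. In bulk RNA, a shift of cells between cell cycle phases and a change of RNA per cell cannot be told apart. Of 49 tested E2F and G1/S genes, 24 were lower (49.0%, against 13.5% of all genes), 1 was higher and 24 did not pass, with a median of -0.24. E2F2, an activator of replication genes (ENSG00000007968, chromosome 1, 23506430 to 23531220), was at 25.7, 30.1 and 25.2 CPM in DMSO and 8.73, 8.76 and 9.32 CPM with YKL5124. The groups were far apart, and the fall was 1.59 (SE 0.11, adjusted p = 2.73e-12, edgeR). RRM2, the small subunit of ribonucleotide reductase, fell by 0.99 (SE 0.08) from 60.7 ± 1.29 to 30.5 ± 1.72 CPM, and E2F1 fell by 0.34 (SE 0.08) from 55.7 ± 3.41 to 44.0 ± 1.22 CPM. The 4 lowest values of the list, named after they were seen, were those of E2F8 (-1.76), E2F2, E2F6 (-1.30) and E2F7 (-1.26). The higher member was GINS4, a subunit of the replicative helicase, at 0.26, with its call lost in 7 alternatives. Among 24 cell cycle kinases, cyclins and inhibitors, 10 were lower (41.7%, against 13.5% of all genes) and 1 was higher (4.17%, against 7.25%). CDC25A, the phosphatase that activates CDK2, was at 103, 107 and 104 CPM in DMSO and 41.7, 41.5 and 38.8 CPM with YKL5124, a fall of 1.36 (SE 0.07, adjusted p = 2.18e-15, edgeR) with no overlap between groups. CCNE1, cyclin E1, fell by 1.22 (SE 0.10) from 31.9 ± 3.67 to 13.8 ± 0.682 CPM, and the higher member, CDK6, was at 0.25 (SE 0.06), a call lost with fly scaling. Of 44 G2/M genes, 19 were lower (43.2%, against 13.5% of all genes) and 0 were higher, with a smaller median (-0.19). CCNF, a ubiquitin ligase subunit, was at -0.98 and HJURP, a centromere histone chaperone, at -0.75. The count for G2/M was 13 without DMSO replicate 2, 12 with fly scaling, 12 in DESeq2 and 10 with upper quartile scaling.

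ZNF367, a zinc finger factor, was at 22.8, 18.5 and 20.5 CPM in DMSO and at 5.33, 4.75 and 4.58 CPM with YKL5124 (ENSG00000165244, chromosome 9, 96385941 to 96418329). No library of either group came near the other, and the fall was 2.09 (SE 0.14, adjusted p = 1.55e-12, edgeR).

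Promoters of genes that fell were searched for letters to which E2F factors are known to bind. RefSeq promoter windows (GRCh38.p14, 250 bases before to 50 after the start) matched 9973 of the 15831 tested genes. An E2F match meant TTTCCCGC, TTTGGCGC, TTTCGCGC or TTTGCCGC on either strand. Such a match was in 5.48% of all matched windows, in 5.95% of those of lower genes and in 3.76% of those of higher genes. In the E2F and G1/S list it was in 10 of 22 windows of lower genes (45.5%) and in 12 of 21 windows of the others (57.1%), so the letters were common in the list whether or not a gene was called lower. The 250 bases before the start are given for 5 lower genes, E2F2, ZNF367, CDC25A, CDT1 and SNHG1, chosen after their values were seen and because each holds a match, with the match in capitals. They lie at chr1:23531234-23531483 (minus strand), chr9:96418371-96418620 (minus), chr3:48188418-48188667 (minus), chr16:88803539-88803788 (plus) and chr11:62855886-62856135 (minus). CDT1, which licenses replication origins, fell by 0.72 (SE 0.07) and is shown for its promoter.
E2F2: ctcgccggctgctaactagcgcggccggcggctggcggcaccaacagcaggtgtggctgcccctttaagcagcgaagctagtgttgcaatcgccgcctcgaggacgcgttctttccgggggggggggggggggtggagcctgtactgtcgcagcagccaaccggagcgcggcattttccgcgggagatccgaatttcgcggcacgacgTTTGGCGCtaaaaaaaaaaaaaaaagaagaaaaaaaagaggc
ZNF367: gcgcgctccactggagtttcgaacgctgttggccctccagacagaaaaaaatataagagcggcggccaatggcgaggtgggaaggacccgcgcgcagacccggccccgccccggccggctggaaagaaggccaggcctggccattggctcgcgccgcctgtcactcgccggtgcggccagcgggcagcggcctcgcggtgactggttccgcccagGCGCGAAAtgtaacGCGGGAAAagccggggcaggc
CDC25A: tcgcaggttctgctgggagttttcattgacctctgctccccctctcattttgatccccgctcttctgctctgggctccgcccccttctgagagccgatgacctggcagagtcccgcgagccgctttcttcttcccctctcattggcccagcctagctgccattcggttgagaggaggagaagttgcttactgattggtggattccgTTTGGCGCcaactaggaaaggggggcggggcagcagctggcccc
CDT1: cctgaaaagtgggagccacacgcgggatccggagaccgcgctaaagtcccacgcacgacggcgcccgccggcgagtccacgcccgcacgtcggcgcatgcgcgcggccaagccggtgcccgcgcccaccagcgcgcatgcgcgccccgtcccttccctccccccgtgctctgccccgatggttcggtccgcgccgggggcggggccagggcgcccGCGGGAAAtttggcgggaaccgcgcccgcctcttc
SNHG1: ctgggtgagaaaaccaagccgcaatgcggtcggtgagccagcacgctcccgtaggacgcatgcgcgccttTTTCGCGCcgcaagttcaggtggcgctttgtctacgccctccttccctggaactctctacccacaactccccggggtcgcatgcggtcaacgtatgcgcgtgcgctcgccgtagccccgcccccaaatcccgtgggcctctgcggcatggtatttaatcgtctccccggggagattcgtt
The matches begin 42 bases before the start in E2F2, 44 in CDC25A, 35 in CDT1 and 35 and 21 in ZNF367, and 180 bases before it in SNHG1. The letters are a description of these windows and not a test of binding. Other letters searched on both strands were CCAAT, found in 37.3% of all windows and 40.4% of those of lower genes, and TATAAA, found in 5.46% and 6.39%. TATAAA was in 13.8% of 116 windows of genes with a 2-fold rise and in 8.85% of 226 windows of genes with a 2-fold fall. TGANTCA, a form of the AP-1 site, was in 3.99% of all windows, 4.62% of those of lower genes and 5.95% of those of higher genes, and in 9.48% and 7.08% of those with a 2-fold rise and a 2-fold fall. TGACGTCA, the cAMP response element, was in 3.26% of all windows, 3.92% of those of lower genes and 4.07% of those of higher genes, and in 2.59% and 0.885% of those with a 2-fold rise and a 2-fold fall.

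Immediate-early genes, which cells switch on within minutes of a signal, had the lowest median of all lists (-0.83). Of 36 tested, 24 were lower (66.7%, against 13.5% of all genes) and 0 were higher (against 7.25% of all genes). EGR1, a zinc finger factor of growth signals (ENSG00000120738, chromosome 5, 138465490 to 138469315), was at 181, 184 and 188 CPM in DMSO and 44.9, 39.7 and 43.6 CPM with YKL5124. The groups were widely separated, and the fall was 2.11 (SE 0.07, adjusted p = 4.61e-19, edgeR). PIM1, a survival kinase, was at 11.6, 12.8 and 10.2 CPM in DMSO and 1.70, 1.96 and 1.50 CPM with YKL5124, the largest fall among protein-coding genes of at least 10 CPM (-2.74, SE 0.18, adjusted p = 9.56e-13, edgeR). FOSL2, JUN and FOS, subunits of the factor AP-1, fell by 1.73 (SE 0.10), 1.25 (SE 0.16) and 0.97 (SE 0.14), with means of 46.3, 9.06 and 11.3 CPM in DMSO and 14.0, 3.86 and 5.78 CPM with YKL5124.

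**Figure D3:**
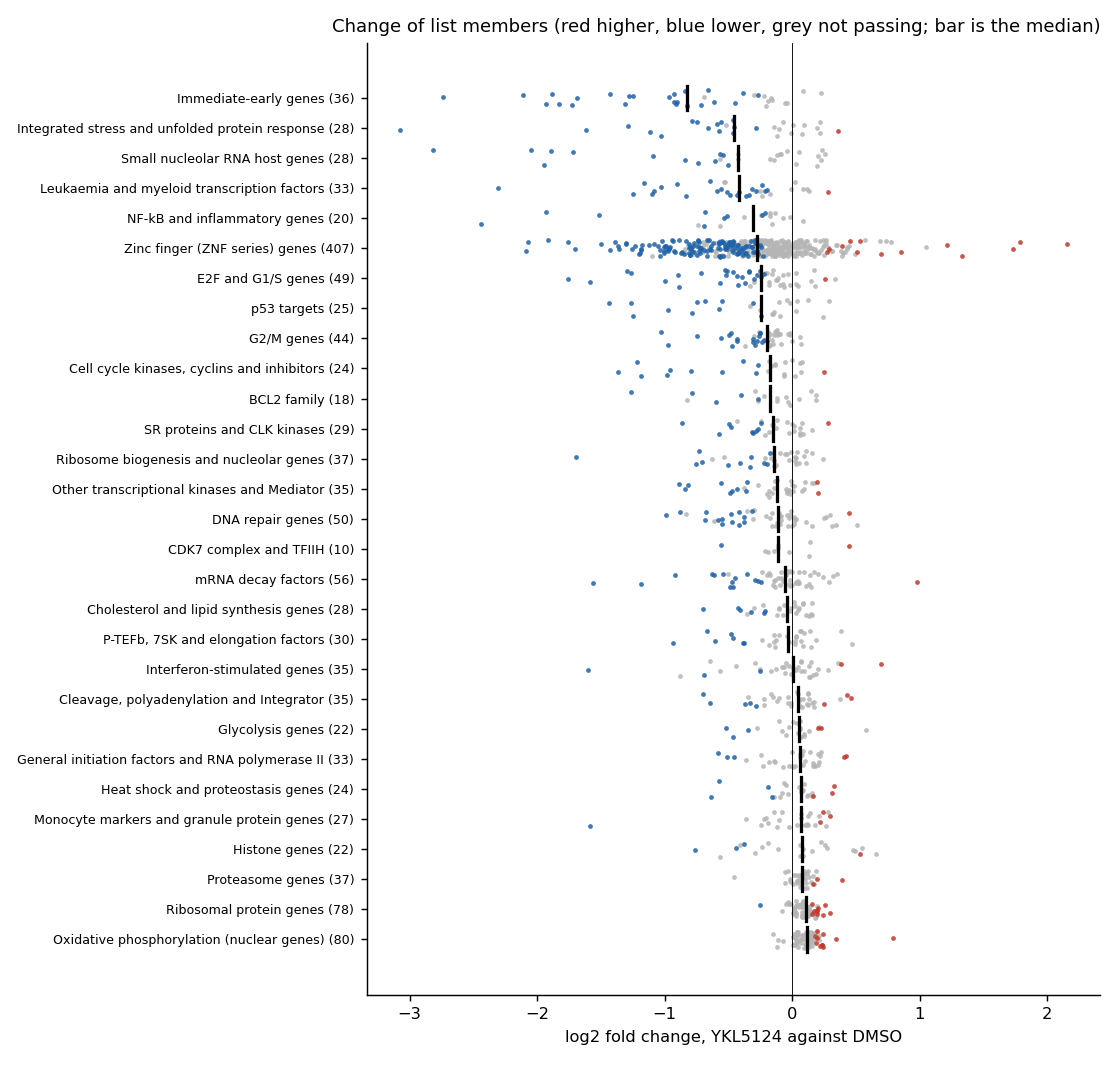
Log2 fold changes of the members of 29 gene lists with at least 10 tested members, 1 point per gene, with the number tested in brackets. Black bars are list medians, which run from -0.83 for immediate-early genes to 0.12 for oxidative phosphorylation genes, and red and blue points passed the test.

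Lists of stress and survival genes held more lower genes than the 13.5% of all genes. The integrated stress and unfolded protein response list had 15 lower genes (53.6%, or 11 of 28 without DMSO replicate 2) and 1 higher gene among 28 tested, with a median of -0.46. HERPUD1, a component of the degradation machinery of the endoplasmic reticulum, was at 34.2, 39.2 and 41.5 CPM in DMSO and 13.5, 11.9 and 12.2 CPM with YKL5124, a fall of 1.61 (SE 0.10) with no overlap. DDIT3, the stress factor CHOP, fell by 1.28 (SE 0.10, its last exon overlaps MARS1), and the higher member was ASNS, asparagine synthetase (0.36, SE 0.07, call lost with fly scaling). Of 25 p53 targets, 11 were lower and 0 were higher, with BBC3, a BH3-only death protein, at -1.27 (SE 0.10) and AEN, an apoptotic nuclease, at -1.24 (SE 0.08). Of 18 BCL2 family genes, 5 were lower and 0 were higher. PMAIP1, another BH3-only protein, fell by 0.78 (SE 0.08), and MCL1, the anti-apoptotic protein on which many leukaemia cells rely, fell by 0.40 (SE 0.06) from 409 ± 13.6 to 310.3 ± 14.9 CPM. NF-kB and inflammatory genes had 9 lower and 0 higher among 20, with NFKBIA, an inhibitor of NF-kB, at -0.51 and IRF1, an interferon regulatory factor, at -0.54.

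Interferon, heat shock, glycolysis and histone lists had between 8.57% and 16.7% of members lower, against 13.5% of all genes. Interferon-stimulated genes had 2 higher and 3 lower among 35, including IFI35 at 0.39 and DTX3L at -0.25. Heat shock and proteostasis genes had 3 higher (1 without DMSO replicate 2) and 4 lower among 24, with the co-chaperones DNAJB6 at 0.33 and DNAJB1 at -0.64 and the heat shock factor HSF2 at -0.57. Calls of IFI35 and DNAJB6 were lost with fly scaling. Cholesterol and lipid synthesis genes had 6 lower and 0 higher among 28, and INSIG1, which retains the sterol sensor SCAP, fell by 0.43 (SE 0.08). Glycolysis genes had 2 higher and 3 lower among 22, with the glucose transporter SLC2A1 at -0.52 and the regulatory enzyme PFKFB3 at -0.46. Histone genes had 1 higher and 3 lower among 22, with the linker histone H1-10 at -0.44. In the DNA repair list 14 were lower and 1 was higher among 50, with RMI1, a partner of BLM helicase, at -0.88 and FANCE, a Fanconi core subunit, at -0.68, while BRCA1 did not pass (-0.02, SE 0.07).

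Lists of RNA processing and decay differed in their share of lower genes. Among 56 mRNA decay factors, 14 were lower (25%, against 13.5% of all genes) and 1 was higher (1.79%, against 7.25%). ZFP36L2, which directs decay of AU-rich mRNAs, was at 329.7, 378 and 342 CPM in DMSO and 128, 115 and 114 CPM with YKL5124, a fall of 1.56 (SE 0.08, adjusted p = 1.30e-15, edgeR) with the groups apart. BTG1, an antiproliferative partner of the CCR4-NOT deadenylase, fell by 0.92 (SE 0.08). The higher member was CNOT4, a ubiquitin ligase of CCR4-NOT, at 0.98 (SE 0.14), but 0.19 and no longer called when rows were summed per gene. SR protein and CLK kinase genes had 9 lower (31.0%) and 1 higher among 29, with RSRC2 at -0.86 and the splicing factor SRSF6 at -0.48. Cleavage, polyadenylation and Integrator genes had 5 lower (14.3%) and 3 higher (8.57%) among 35, close to the shares over all genes. Its lower members included CSTF1 (-0.70, SE 0.11) and CSTF2T (-0.65, SE 0.15), subunits of the cleavage stimulation factor. Its higher members included PCF11, which ends transcription, at 0.43 (SE 0.12) and WDR33, which reads the polyadenylation signal, at 0.46 (SE 0.09). Both overlap other counted genes, and both calls were lost when rows were summed per gene (0.28 and 0.25), that of PCF11 also with fly scaling and without DMSO replicate 2 (0.32). Ribosome biogenesis genes had 11 lower (29.7%) and 0 higher among 37, with the assembly factor RRS1 at -0.73 (SE 0.06).

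Zinc finger genes of the ZNF series are mostly transcription factors. Of 407 tested, 134 were lower (32.9%, against 13.5% of all genes) and 13 were higher (3.19%, against 7.25%), with a median of -0.28. The 195 on chromosome 19 had 53 lower and 7 higher, and the 212 on other chromosomes had 81 lower and 6 higher, with medians of -0.27 and -0.28. ZNF503, a repressor of the NET family, fell by 1.30 (SE 0.09) from 31.0 ± 1.73 to 12.5 ± 0.691 CPM, and ZNF33B fell by 1.71 (SE 0.13). ZNF714 was at 3.26, 3.90 and 3.30 CPM in DMSO and 10.7, 13.6 and 11.5 CPM with YKL5124, a rise of 1.79 (SE 0.16) with no overlap, and ZNF425 rose by 2.16 (SE 0.24).

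The largest rises among genes of at least 10 CPM were in genes of varied function. TSPOAP1, a partner of the mitochondrial protein TSPO (ENSG00000005379, chromosome 17, 58301228 to 58328760), was at 7.11, 6.00 and 4.95 CPM in DMSO and 33.1, 29.9 and 35.9 CPM with YKL5124, a rise of 2.45 (SE 0.12, adjusted p = 2.18e-15, edgeR). ARTN, a ligand of the GDNF family, was at 1.93, 1.43 and 2.52 CPM in DMSO and 11.2, 10.7 and 9.32 CPM with YKL5124, a rise of 2.37 (SE 0.19). In both the groups lay far apart, and the row counted for TSPOAP1 is annotated as a retained intron transcript. USP8, a deubiquitinase of endosomes, was at 44.1, 45.4 and 48.0 CPM in DMSO and 112, 113 and 101 CPM with YKL5124, a rise of 1.25 (SE 0.07) without overlap. SRP19, a protein of the signal recognition particle, rose by 1.62 (its last exon overlaps REEP5 and ZRSR2P1), SMIM8 by 1.43, CCDC30 by 1.33, DTWD1 by 1.24, AC015813.2 by 1.44 (it overlaps AC015813.1) and the potassium channel gene KCNJ14 by 1.15. These rises belong to single transcript rows in part. The rows counted for SMIM8 and CCDC30 are retained intron transcripts that end 21147 and 59091 bases upstream of the annotated gene ends. When all rows of a gene were summed, USP8 was at 0.38, SRP19 at 0.33, CCDC30 at 0.81, SMIM8 at 0.42 and DTWD1 at 0.32, and the last 2 no longer passed the test.

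Among genes that make no protein, AL683813.1 rose by 2.63 (SE 0.19), LINC00562 by 1.96 (SE 0.16) and AC009404.1 by 1.84 (SE 0.13). LINC00562 was at 3.33, 3.43 and 3.85 CPM in DMSO and at 16.1, 12.9 and 12.8 CPM with YKL5124, without overlap. By annotated type, 99 of 508 lincRNA genes (19.5%) and 96 of 531 antisense genes (18.1%) were higher, against 699 of 11671 protein-coding genes (5.99%). Lower calls ran the other way, with 44 lincRNA genes (8.66%), 52 antisense genes (9.79%) and 1853 protein-coding genes (15.9%). Of the 346 genes with a 2-fold rise, 238 were not protein-coding. Levels of these types were low. The median in DMSO was 1.89 CPM for lincRNA and 2.01 CPM for antisense genes, against 18.3 CPM for protein-coding genes. The filter on low counts let a gene pass through any group where it was high, which favours rises among genes low in DMSO. Of 413 protein-coding genes under 1 CPM in DMSO, 15.5% were higher and 0.969% were lower. The shares by type were not compared at equal levels. An antisense gene cannot be told apart from its partner on the other strand where the strand setting is unknown.

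Within protein-coding genes, 108 rose at least 2-fold, and the counted transcript of 29 of them (26.9%) ended over 1000 bases upstream of the gene's annotated end, against 17.8% of all 11671 tested. The counted transcript was annotated as non-coding in 44 of the 108 (40.7%), against 25.8% of all. For the 266 that fell at least 2-fold the same shares were 18.8% and 16.2%. Counts gained in a single group could make a row the one with the highest total, so these shares are a description.

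Lists of ribosomal protein, oxidative phosphorylation and proteasome genes had medians slightly above 0. Ribosomal protein genes had 10 higher and 1 lower among 78 (12.8% higher, against 7.25% of all genes) with a median of 0.11, and nuclear genes of oxidative phosphorylation had 11 higher and 0 lower among 80 with a median of 0.12. SDHD, a subunit of succinate dehydrogenase, was at 3.78, 3.52 and 3.85 CPM in DMSO and 6.06, 6.80 and 6.41 CPM with YKL5124, a rise of 0.79 (SE 0.17). RPL23A, a ribosomal gene whose reads could be shared with processed pseudogenes, was at 0.25 (call lost in 3 alternatives). Proteasome genes had 3 higher and 0 lower among 37, with PSMA5 at 0.39. The rows counted for SDHD, RPL23A and PSMA5 end 24219, 3098 and 2819 bases upstream of the annotated gene ends. That for RPL23A is a retained intron transcript. Higher calls in these lists depended on the scaling. With fly scaling 0 ribosomal protein genes, 1 oxidative phosphorylation gene and 0 proteasome genes were higher. The counts were 44, 33 and 10 with upper quartile scaling. Without DMSO replicate 2 the counts were 4, 7 and 1, while the medians were 0.087, 0.093 and 0.084, against 0.11, 0.12 and 0.081. These lists were not recounted without any other single library, so the fewer calls cannot be tied to that replicate.

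Myeloid markers were present, as the labelled line would have them. Their highest level was that of the integrin subunit ITGB2 (1136 ± 162 CPM in DMSO and 1118 ± 85.1 CPM with YKL5124). Of 27 tested markers and granule protein genes, 3 were higher (11.1%, against 7.25% of all genes) and 1 was lower (3.70%, against 13.5%). ELANE, neutrophil elastase, was at 0.24 (call lost in 4 alternatives) and FCER1G, an Fc receptor chain, at 0.30 (call lost with fly scaling). CLEC12A, a lectin receptor of myeloid cells, was at 6.22, 4.76 and 4.17 CPM in DMSO and 1.82, 1.58 and 1.67 CPM with YKL5124, a fall of 1.59 (SE 0.23), or -0.94 with rows summed. Of 20 markers of other cell types, 4 passed the filter on low counts, of which 0 were called, and PECAM1 was the only one above 10 CPM (205 ± 8.59 CPM in DMSO and 211 ± 3.06 CPM with YKL5124).

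Calls varied with gene structure. Among protein-coding genes, the share called lower went down with annotated gene length, from 24.8% of 986 genes under 5 kb through 16.1% of 3250 genes of 20 to 50 kb to 3.38% of 740 genes over 200 kb. Of the genes over 200 kb, 20.5% were higher, whereas the other length classes had between 4.07% and 6.29% higher. By exon number, 47.9% of 194 genes with 1 exon and 35.9% of 906 genes with 2 to 3 exons were lower, against 9.01% of 4085 genes with over 12 exons. Lower genes had a median length of 20.9 kb and 7 exons, higher genes 47.6 kb and 11 exons, and genes without a call 33.7 kb and 10 exons. Levels also differed along these classes, with a median of 21.1 CPM in DMSO under 5 kb and 8.91 CPM over 200 kb. Within genes of 10 to 100 CPM the lower share still ran from 32.9% under 5 kb to 3.53% over 200 kb, and the higher share reached 27.9% over 200 kb.

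**Figure D4:**
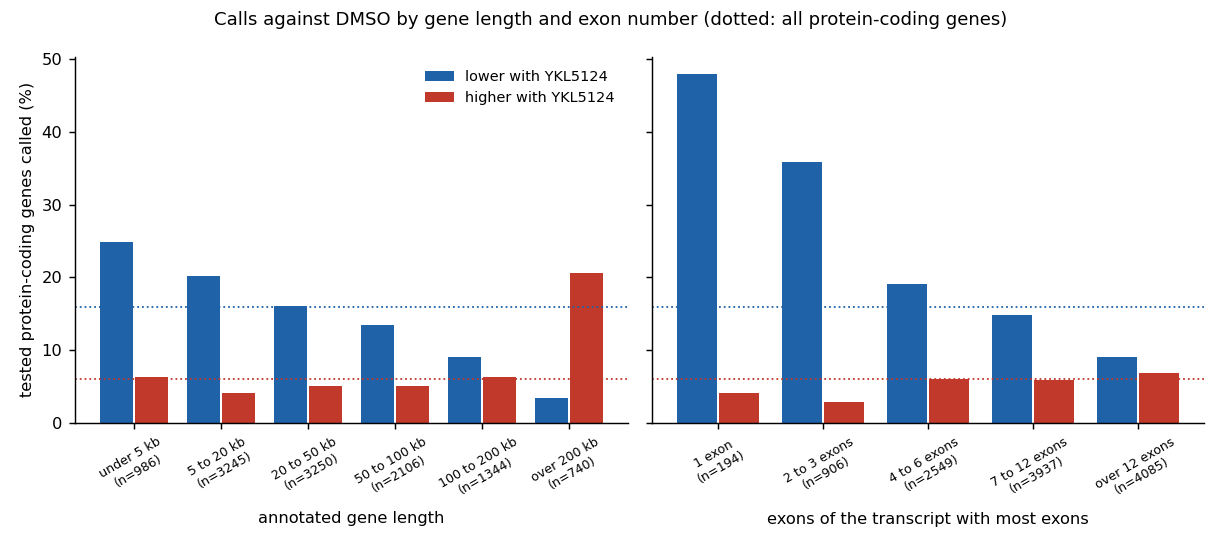
Share of tested protein-coding genes called lower (blue) or higher (red) with YKL5124, by annotated gene length (left) and by the exon number of the transcript with most exons (right), with the number of genes under each class. Dotted lines are the shares over all protein-coding genes, 15.9% lower and 5.99% higher, and the lower share drops from left to right in both panels.

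YKL5124 libraries were then set directly against the libraries of the other inhibitors. These differences are taken without the DMSO columns, which enter the fit only through the filter, the scaling and the shared estimate of spread. Against AZ5576, 1519 genes (9.6%) were higher and 987 genes (6.23%) were lower with YKL5124, and against THZ531, 4827 genes (30.5%) were higher and 4834 genes (30.5%) were lower. Scaling matters for the latter, since the median of all genes against THZ531 was -0.011 with TMM, 0.29 with fly scaling and 0.26 with library size alone. Immediate-early genes were higher with YKL5124 than with AZ5576 in 14 of 36 and lower in 3, and lower than with THZ531 in 34 of 36. JUN had means of 9.06 CPM in DMSO, 3.86 with YKL5124, 1.57 with AZ5576 and 31.7 with THZ531. E2F and G1/S genes were lower with YKL5124 than with AZ5576 in 19 of 49 and higher in 0. Small nucleolar RNA host genes were lower than with AZ5576 in 16 of 28 and higher in 0, whereas ZNF genes were higher than with AZ5576 in 154 of 407 and lower in 9. EGR1, CDC25A and USP8 differed from AZ5576 by -0.12 (SE 0.08), -0.05 (SE 0.08) and -0.02 (SE 0.07), and none of these passed the test.

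A small group of genes was lower with YKL5124 than in each of the other 3 groups. Among genes whose mean reached 10 CPM in any group, 74 genes (0.467%) met this, 61 of them protein-coding, and 59 genes (0.373%) were higher than in all 3, 40 of them protein-coding. The 3 comparisons share the YKL5124 libraries, so they are not independent of each other. MYC was lower by 2.30 against DMSO, 2.02 against AZ5576 (SE 0.21, edgeR adjusted p = 4.27e-08) and 2.02 against THZ531 (SE 0.22, adjusted p = 2.65e-09, edgeR). Its mean was 9.82 ± 3.01 CPM with AZ5576 and 9.16 ± 0.734 CPM with THZ531 (SD, n = 3). SNHG1 was lower by 2.25 against AZ5576 (SE 0.09) and by 2.66 against THZ531 (SE 0.08), with 145 ± 7.09 and 193 ± 16.9 CPM in those groups, both above DMSO. ZNF367 was lower by 1.68 and 1.79, SNHG3 by 1.63 and 1.95, and CSKMT, a mitochondrial methyltransferase whose last exon overlaps LBHD1, by 1.46 and 3.53 against AZ5576 and THZ531. Of the list members in this group, 9 were small nucleolar RNA host genes (of 28 tested). E2F and G1/S genes had 5 of 49 (E2F2, SLBP, RRM2, RFC5 and UHRF1), and leukaemia and myeloid transcription factors had 5 of 33 (MYC, HOXA9, IRF2BP2, ZEB2 and HOXA10). Cell cycle kinases, cyclins and inhibitors had 3 (WEE1, CCNE1 and CDKN2C), and immediate-early genes had 3 (PIM1, KLF6 and KLF11). The G2/M, p53, cholesterol, mRNA decay, ribosome biogenesis, ribosomal protein and ZNF lists had 1 each.

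On the higher side, AL157762.1, a sense intronic RNA, was above AZ5576 by 1.45 and above THZ531 by 3.64, and PPP1R12A-AS1, an RNA read away from the PPP1R12A promoter, by 1.78 and 3.62. SMIM8 was above AZ5576 by 0.98 and above THZ531 by 4.79, LINC00562 by 0.93 and 3.40, and DTWD1 by 0.92 and 3.65. The SMIM8 call against AZ5576 was lost with summed rows (0.27). With summed rows SMIM8 and DTWD1 were also no longer called against DMSO (0.42 and 0.32), so neither was then higher than in all 3 groups. PCF11 and RBBP6, both factors of mRNA 3' end formation, were the 2 members of the cleavage and polyadenylation list on this side. With fly scaling 25 genes were lower and 35 higher than in all 3 groups, with library size alone 39 and 89, and with summed rows 37 were higher.

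**Figure D5:**
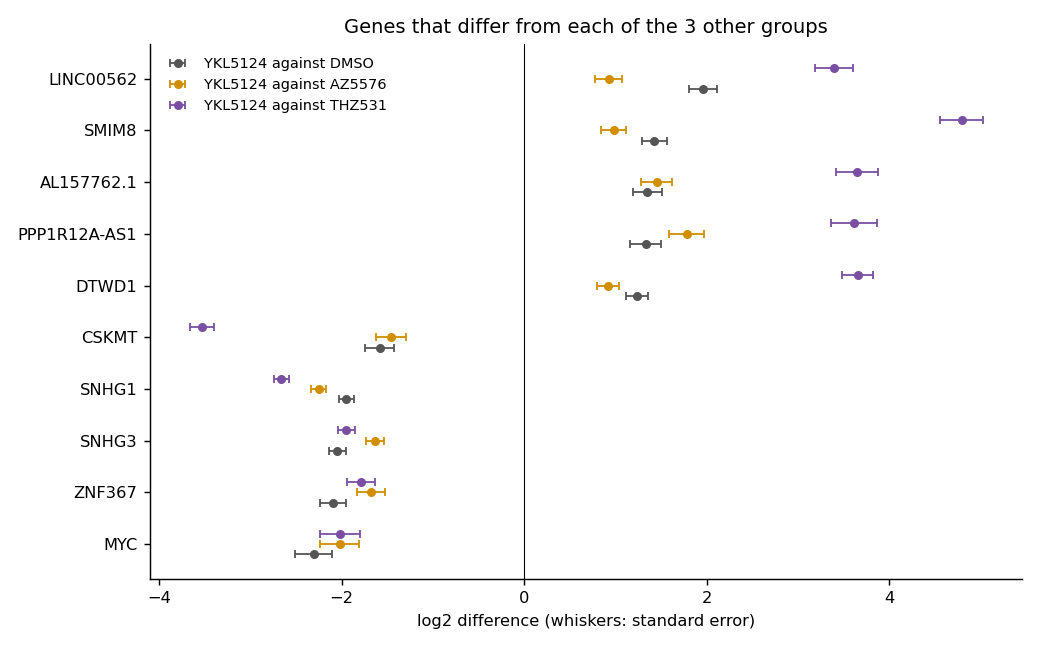
Log2 differences of YKL5124 against DMSO, AZ5576 and THZ531 for the 5 genes on each side whose smallest difference was largest, with whiskers for the standard error of the fit. All 30 differences lie on the side of the gene's DMSO difference. The selection fixed this, because each gene had to be called in the same direction against DMSO, AZ5576 and THZ531.

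The letters CACGTG, an E-box that MYC and related factors are known to bind, were in 15 of 61 matched promoter windows (24.6%) of the genes lower than in all 3 groups with at least 10 CPM, against 10.3% of all 9973 windows and 11.1% of those of all lower genes. E2F letters were in 6 of those 61 windows (9.84%), CCAAT in 29 (47.5%), TATAAA in 8 (13.1%), TGACGTCA in 1 (1.64%) and TGANTCA in 0. The match to CACGTG was counted on both strands, which read alike for these letters. The 61 genes had to reach 10 CPM, a floor that the other windows did not have, so the shares are not like for like. Several motifs and gene sets were searched, but not the genes higher than in all 3 groups. A link of this share to MYC was not tested.

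A difference in human RNA relative to the added fly material was not detected. The ratio of human to fly counts was 30.3 ± 1.42 with YKL5124 and 31.1 ± 3.90 in DMSO (SD, n = 3), a ratio of 0.972 (exact two-sided permutation test, p = 0.9, where 0.1 is the smallest p that 3 against 3 allows). The fly material went into purified RNA, so the ratio does not count RNA per cell. On principal component 2, which held 17.8% of the variance over the 12 libraries, the 3 DMSO libraries lay at -20.3 to -19.7 and the 3 YKL5124 libraries at 0.955 to 1.34. On principal component 3, with 3.89% of the variance, the YKL5124 libraries lay at -10.9 to -7.70 and the DMSO libraries at 2.38, 7.53 and 4.14, with DMSO replicate 2 the farthest from YKL5124.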

How the data were processed

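The authors deposited a table of raw read counts for human and fly transcript rows in 12 libraries, per the labels and the file headers. Trim Galore 0.6.5, bcl2fastq 2.17.1.14, edgeR 3.32.1, dm6 and hg38 are listed in the submitters' processing notes. For the aligner, counter, annotation and strand setting nothing is given in the sources used here.

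GENCODE v29 named 251529 of 256726 human rows, and the 5197 unnamed rows (0.655% to 0.719% of human counts) were left out. Rows of a gene overlap (their sum is 3.30 to 3.40 times the highest row), so the row with the highest total was used. Of genes with identical counts, 94 copies were dropped. The 37 mitochondrial rows held 0 counts. One edgeR 4.0.16 quasi-likelihood fit (R 4.3.3) covered the 12 libraries and had no term but group, with TMM factors and filterByExpr with a minimum count of 10. Standard errors are the size of a log2 fold change over the square root of its F statistic. The fit was tested on simulated data. Within groups, the chi-square per gene between pairs of libraries was 1.73 to 5.00, which exceeds sampling noise, and each library counted as 1 sample.

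The groups, lists and rules were chosen with earlier results of these data known, so no list is independent evidence. Named genes were 15 preset genes, the 10 largest called rises and falls of protein-coding genes and 3 of other types with at least 10 CPM and groups that did not overlap, up to 2 called genes per direction and list by adjusted p, and 5 genes per side that differed from all 3 groups. Weak members of some lists are given by count alone, and a few genes that the rule names are not reported here. Alternatives were other scalings, filters, summed rows, DESeq2 1.42.0, a replicate block, the 6 libraries alone and leaving out each library. Motif letters were searched in RefSeq promoters of GRCh38.p14.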

Additional observations from a re-analysis of the deposited data

How the results depend on the processing

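Limits. Each gene rests on 1 transcript row and 3 libraries per group, and the scaling sets where no change lies. Low-level rises rest on few counts, and the filter favours them. The strand setting and dose are not given, and the vehicle columns are known only as UT.

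Counts of higher and lower genes against DMSO were 530 and 1985 with fly scaling and 2020 and 1713 with upper quartile scaling, and 1064 and 1528 in DESeq2, against 1148 and 2143; the cause was not tested. Genes with a change of at least 2-fold numbered 116 higher and 250 lower among protein-coding genes alone and 83 and 187 with a minimum count of 50, where fewer genes were tested. Genes lower and higher than in all 3 groups numbered 25 and 35 with fly scaling and 39 and 89 with library size alone, and 37 were higher with summed rows. Leaving out 1 library at a time gave 861 to 1409 higher and 1715 to 2196 lower genes against DMSO. The human to fly ratio was 0.967 with 1 row per gene (exact permutation p = 0.9). Of the 111 named genes called against DMSO, 80 kept their call in each of the 24 alternatives in which they were tested, 31 lost it in at least 1, and 0 changed sign. Of the 31, 7 lost it with fly scaling alone (ASNS, CDK6, DNAJB6, FCER1G, IFI35, NDUFC1 and PSMA5). Dropping genes with a last exon that overlaps a different counted gene, a setting chosen after seeing the data, gave 979 higher and 1876 lower genes.

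The replicate numbers do not pair the libraries by any label, and same-numbered DMSO and YKL5124 libraries had correlations of their deviations of -0.15, -0.037 and 0.24. With a replicate block 1107 genes were higher and 2108 lower against DMSO, and not every library correlated best with its own number.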

Other observations

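Several low-level genes outside the naming rule had large falls, and they are given here as values chosen after they were seen. CXCL8, the neutrophil chemokine interleukin 8, was at 0.815, 1.14 and 0.865 CPM in DMSO and 0, 0.186 and 0.250 CPM with YKL5124, and its log2 fold change was -2.44 (SE 0.61; edgeR adjusted p = 0.00396). CCL3, a macrophage chemokine, was at 1.26, 0.666 and 1.42 CPM in DMSO and 0.242, 0.280 and 0.333 CPM with YKL5124 (-1.93, SE 0.52). CHAC1, a glutathione-degrading enzyme of the stress response, was at 1.93, 2.00 and 2.83 CPM in DMSO and 0.121, 0.280 and 0.333 CPM with YKL5124 (-3.07, SE 0.43). In each of them no YKL5124 library reached a DMSO library.

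On the cell cycle side, WEE1, the kinase that holds CDK1 inactive, was at 18.9 to 19.3 CPM in DMSO and 7.40, 8.48 and 9.08 CPM with YKL5124, without overlap, and its log2 fold change was -1.18 (SE 0.12; edgeR adjusted p = 9.54e-09). CDKN1A, the p53 target p21, was at 11.9, 11.9 and 12.6 CPM in DMSO and 8.37, 7.46 and 8.99 CPM with YKL5124 (-0.55, SE 0.14), again without overlap.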
